A study of Mus musculus with 6 samples.

Results

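The nuclear-encoded genes of the respiratory chain were followed across mouse kidney and mouse mammary tumor cells profiled by single cell RNA sequencing. Members were taken by symbol, as the genes named for a subunit of complex I (Ndufa, Ndufb, Ndufc, Ndufs, Ndufv), complex III (Uqcr), complex IV (Cox4i, Cox5 to Cox8) or complex V (Atp5), without pseudogenes or Ndufaf assembly factors. This gave 81 of 31053 gene features (80 symbols, since Atp5o is listed under 2 identifiers), with 36 features counted to complex I, 8 to complex III, 18 to complex IV, 16 to complex V and 3 (Ndufa4l2, Cox7a2l and Atp5s) kept apart. The 6 libraries comprised 3 from kidney of C57BL/6 mice (male, 12 weeks old) and 3 from mammary tumors of MMTV-PyMT mice (female, 10 weeks old), a strain in which a mammary tumor virus promoter drives the polyoma middle T oncogene in mammary epithelium. For each tissue, minced pieces were either digested for 60 min by a conventional protocol (control), or loaded into a microfluidic digestion device and passed through an integrated dissociation and filter device, with cells eluted after a 15 min interval and again at 60 min. All 6 suspensions shared collagenase digestion, lysis of red cells and sorting for live cells. The 15 and 60 min platform libraries of a tissue are successive fractions of the same minced sample, so time and fraction cannot be told apart. There was 1 library per condition, so no test, standard error or p-value could be computed. Values below are therefore levels or ratios with 95% intervals that cover the counting error of the unique molecular identifiers (UMIs) only.

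The respiratory chain sits in the inner mitochondrial membrane. Complex I takes electrons from NADH, complex III passes them to cytochrome c, complex IV reduces oxygen, and complex V (ATP synthase) uses the resulting proton gradient to make ATP. A small core of subunits of complexes I, III, IV and V is encoded by mitochondrial DNA, and the genes described here supply the rest from the nucleus. Kidney tubule cells, which drive salt and solute transport by ion pumps, are among the most mitochondria-rich cells of the body. Several subunits of complex IV exist as isoforms used by different tissues, such as the heart and muscle isoform Cox7a1 beside the widely used Cox7a2. Ndufa4, long counted with complex I by its name, is a subunit of complex IV and is counted there, and Ndufa4l2 is its paralog.

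The coding sequences of Ndufa4 and Ndufa4l2 are shown because the balance of this pair separated pericytes from the other cell types (below, by cell type). They were read from the GRCm38 genome with GENCODE M21 coding exons. Ndufa4 lies on the minus strand (coding exons within chr6:11900292-11907497, 249 bases) and Ndufa4l2 on the plus strand (coding exons within chr10:127514967-127517154, 264 bases). Both run 5′ to 3′ from start codon to stop codon, and capitals mark bases that differ between the aligned sequences or have no partner.
Ndufa4: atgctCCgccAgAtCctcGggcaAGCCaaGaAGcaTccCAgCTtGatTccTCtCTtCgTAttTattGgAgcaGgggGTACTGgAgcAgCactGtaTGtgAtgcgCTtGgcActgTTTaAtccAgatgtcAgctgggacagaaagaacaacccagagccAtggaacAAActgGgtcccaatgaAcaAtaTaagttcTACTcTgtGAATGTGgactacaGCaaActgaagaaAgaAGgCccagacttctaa
Ndufa4l2: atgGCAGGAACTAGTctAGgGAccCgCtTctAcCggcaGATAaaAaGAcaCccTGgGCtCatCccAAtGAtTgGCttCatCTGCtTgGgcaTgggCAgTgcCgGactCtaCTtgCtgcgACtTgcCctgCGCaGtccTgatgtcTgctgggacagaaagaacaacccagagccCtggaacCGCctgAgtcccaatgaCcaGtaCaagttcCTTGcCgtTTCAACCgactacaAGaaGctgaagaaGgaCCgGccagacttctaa
Of 245 aligned base pairs 168 were identical (68.6%), and the longest identical stretch was 28 bases. Members with near-identical copies elsewhere in the genome could share reads with them, so counts of such members are less certain.

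A promoter is shown for Cox6a1, the complex IV subunit whose level stood highest relative to the control among complex IV members in proximal tubule cells of the 15 min library (below). Of 80 member symbols 64 had a RefSeq promoter window (GRCm38.p6). The 250 bases before the annotated start of Cox6a1 (chr5:115348959-115349208, minus strand) are printed 5′ to 3′, with matches to the NRF1 core and the ETS core in capitals.
Cox6a1 promoter: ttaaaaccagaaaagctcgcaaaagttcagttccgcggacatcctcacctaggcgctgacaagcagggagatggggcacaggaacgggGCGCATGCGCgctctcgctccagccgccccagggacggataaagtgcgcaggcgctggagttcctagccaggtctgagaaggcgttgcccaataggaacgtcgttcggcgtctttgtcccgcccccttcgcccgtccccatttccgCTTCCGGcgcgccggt
For the counts, windows ran from 250 bases before the start to 50 after it, and a gene counted if any of its windows matched. The letters searched, on both strands, were GCGCATGC for NRF1, CCGGAAG for ETS factors and AAGATGGC for YY1. All are DNA-binding factors known for respiratory chain promoters. In Cox6a1 the NRF1 letters matched with first bases at -162 and -160, on opposite strands and overlapping, and the ETS letters matched at -16. The NRF1 letters were present in 9 of 64 member genes (14.1%), among them Uqcrc1, Ndufa8 and Atp5g2, against 3.93% of 17491 protein-coding genes. The YY1 letters were also found in 9 member genes (14.1%), such as Ndufs4 and Ndufc1, against 3.57%. The ETS letters occurred in 14 (21.9%), such as Cox8a and Uqcrh, against 12.9%. A match is a description of the letters and not evidence of binding.

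The libraries held 8152 to 13719 cell barcodes and 69691783 to 116998401 UMIs, and 5736 to 9936 cells per library passed the filters on genes and mitochondrial share. Median UMIs per kept cell ranged from 4583 to 6612 in kidney and from 8211 to 9476 in tumor. The kidney 15 min library stood apart in its mitochondrial transcripts, with a median of 20.4% of UMIs per kept cell against 7.38% in the control and 8.59% at 60 min. Libraries of one tissue shared 16 to 211 barcodes, at most 1.75% of the smaller library. Cells were gated by fixed marker genes, none of them a respiratory chain gene, and class names below stand for cells that carry those markers. Defining markers were detected in each class described, which the gate itself requires, so this does not test the class names.

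Nearly all members were detected. In each tissue 80 of 81 features had at least 1 UMI, and the exceptions were Cox7b2, a testis isoform, in kidney and the second Atp5o entry in tumor, both at 0. Over all deposited cells, 73 members reached 10 CPM (counts scaled to a total of 1000000 UMIs) in kidney and 72 in tumor. The low members were mostly tissue isoforms (Cox4i2, Cox6a2, Cox6b2, Cox7b2, Cox8b, Cox8c) along with Ndufa4l2, the second Atp5o entry and, in tumor, Atp5s. Each 3′ UMI stands for a transcript molecule, so CPM of different genes are compared as molecules, without scaling by length.

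As a whole library, members took 5.14%, 5.78% and 3.95% of UMIs in the kidney control, 15 min and 60 min libraries, and 2.13%, 2.21% and 1.92% in the tumor ones. These totals move with the mix of cells. Proximal tubule cells numbered 3061, 7112 and 2788 of the kept cells in the same kidney order. All further values are therefore given within a class.

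Kidney tubule classes carried the highest shares. In proximal tubule cells, which reabsorb most filtered solutes, members took 7.24% of UMIs in the control (interval 7.23 to 7.25), 6.06% at 15 min and 6.98% at 60 min. In thick ascending limb cells, which reabsorb salt, the share was 9.76% (9.66 to 9.86; 98 cells), 7.04% (61 cells) and 8.14% (310 cells). Principal cells of the collecting duct stood lower, at 4.81% in the control (122 cells) and 4.80% at 60 min (176 cells). Distal convoluted tubule cells reached 50 cells only at 60 min, with 8.72% (115 cells). No other kidney class above 50 cells came near these levels. Endothelial cells held 1.62%, 1.81% and 1.75%, T lymphocytes 1.82%, 1.72% and 1.77%, and B lymphocytes 1.48%, 1.46% and 1.31%. Among classes of at least 50 cells, macrophages were lowest in each kidney library, with 1.25%, 1.27% and 1.02%. For the control library's kidney classes of at least 50 cells, the order began with thick ascending limb, proximal tubule and principal cell. T lymphocyte, endothelial, dendritic cell (1.53%), B lymphocyte (1.48%) and macrophage followed. The counting intervals of dendritic cells and B lymphocytes overlapped, so their order is not separated by counting error.

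Tumor classes lay closer together. Luminal epithelial tumor cells held 2.39%, 2.40% and 2.31% in the control, 15 min and 60 min libraries, and basal epithelial cells 2.27%, 2.10% and 2.19%. T lymphocytes held 2.52%, 2.45% and 2.05%, so they stood above luminal cells in the control and below them at 60 min. Endothelial cells held 1.81%, 1.97% and 1.92%, macrophages 1.58%, 1.58% and 1.43%, and fibroblasts, with at least 50 cells only on the platform, 1.44% at 15 min and 1.63% at 60 min. Granulocytes, short-lived cells known to live largely on glycolysis, were lowest among classes of at least 50 cells in all 3 tumor libraries. They held 0.872% (222 cells), 0.924% (100 cells) and 0.721% (56 cells). Basal cells were gated with luminal transcripts still present, at 41.5% to 72.8% of the luminal level of 5 epithelial transcripts (Wfdc18, Csn3, Trf, Krt18 and Krt8), and the part of this in their share was not tested.

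**Figure D1:**
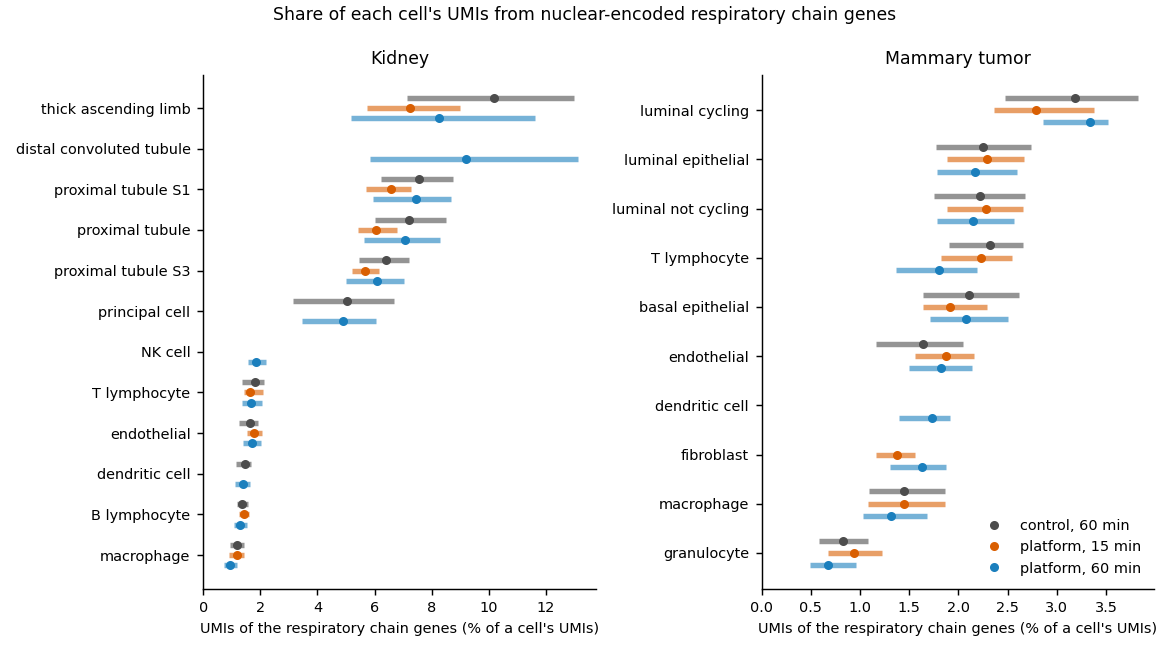
Share of each cell's UMIs (percent) from the nuclear-encoded respiratory chain genes, by cell class and library; points are medians over cells and bars run from the lower to the upper quartile. Kidney tubule classes sit far above the other kidney classes, and proximal tubule medians run from 6.04% at 15 min to 7.20% in the control.

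Single cells varied around these sums. The median proximal tubule cell of the control gave 7.20% of its UMIs to members (quartiles 6.03 to 8.51), against 6.04% (5.41 to 6.78) in the 15 min and 7.07% (5.63 to 8.29) in the 60 min library. The interquartile range was thus narrowest at 15 min, and the ranges of the 3 libraries overlapped. The lowest 5% of proximal tubule cells lay under 4.04%, 4.19% and 2.23% in the control, 15 min and 60 min libraries, so the 60 min library held a tail of cells with low shares. Distal tubule classes spread most, with quartiles of 7.13 and 13.0 around a median of 10.2% in the thick ascending limb of the control, and quartiles of 5.85 and 13.1 in distal convoluted tubule cells at 60 min. Luminal tumor cells had medians of 2.25%, 2.29% and 2.17%, and granulocytes 0.826%, 0.935% and 0.673%.

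Free RNA from lysed cells adds UMIs to every droplet. As a mark of it, 4 abundant proximal tubule transcripts (Kap, Miox, Gpx3 and Fxyd2) were summed in other classes. Kap and Miox are also gate markers of the proximal tubule. Cells entered other kidney classes only with under 0.5% of their UMIs in the proximal tubule gate markers. The gate therefore capped part of this mark in advance, and the mark is not an independent measure of free RNA. In kidney endothelial cells they stood at 1.90%, 1.73% and 2.62% of the proximal tubule level, a share that would bring 0.138, 0.105 and 0.183 percentage points of member UMIs if members came along in proportion. Its part in the endothelial share was not tested. In thick ascending limb cells the mark was higher, at 20%, 9.39% and 13.1%, and would bring 1.45, 0.569 and 0.911 percentage points. Fxyd2 is also expressed in the thick ascending limb, so the mark is not specific for that class.

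Within a class the complexes took unequal parts. In control proximal tubule cells, complex I gave 2.28% of all UMIs, complex III 0.845%, complex IV 2.11% and complex V 1.98%. The ratio of complex IV to complex I transcripts was 0.925, 0.964 and 0.965 in proximal tubule cells of the 3 libraries, 1.08, 1.12 and 1.13 in the thick ascending limb, and 0.820, 0.770 and 0.840 in kidney endothelial cells. Luminal tumor cells gave 0.982, 0.940 and 0.983. Granulocytes tilted furthest to complex IV, at 1.19, 1.22 and 1.54. Complex V over complex I ranged from 0.834 to 0.879 in proximal tubule cells and from 0.713 to 0.780 in kidney endothelial cells. In lymphocytes complex V outweighed complex I, with 1.12 to 1.18 in tumor T cells, 1.02 to 1.11 in kidney T cells and 1.02 to 1.04 in kidney B cells. This was not particular to lymphocytes. Kidney dendritic cells had 1.145 in the control and 1.232 at 60 min, and tumor dendritic cells 1.223 at 60 min. The thick ascending limb had 1.02, 0.997 and 1.04 in the control, 15 min and 60 min libraries, and tumor macrophages 1.04, 0.995 and 1.02.

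A few members carried much of the sum. In proximal tubule cells Cox8a, a small complex IV subunit, was first in each library with 3169, 2674 and 2999 CPM. The proximal tubule levels of Ndufa4 were 2897, 2305 and 2685 CPM, those of Cox6c 2588, 2072 and 2633 CPM, and those of Atp5b, the catalytic beta subunit of ATP synthase, 2036, 1918 and 1990 CPM. The 10 most abundant members made up 30.4%, 30.6% and 31.2% of member UMIs there, and 31, 26 and 30 members exceeded 1000 CPM. In the thick ascending limb Cox8a reached 4258, 3391 and 3722 CPM and Cox6c 4121, 2925 and 3613 CPM. In luminal tumor cells only Cox4i1, the complex IV subunit 4 isoform used in most tissues, passed 1000 CPM (1136, 1160 and 1227), ahead of Cox8a (944, 903 and 873). The median member stood at 755, 599 and 707 CPM in proximal tubule cells and at 231, 226 and 216 CPM in luminal tumor cells. Core subunits with long messages could be far lower, such as Ndufs1, which carries iron-sulfur clusters of complex I, with 138, 143 and 137 CPM in proximal tubule and 23.8, 31.5 and 26.5 CPM in luminal cells.

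**Figure D2:**
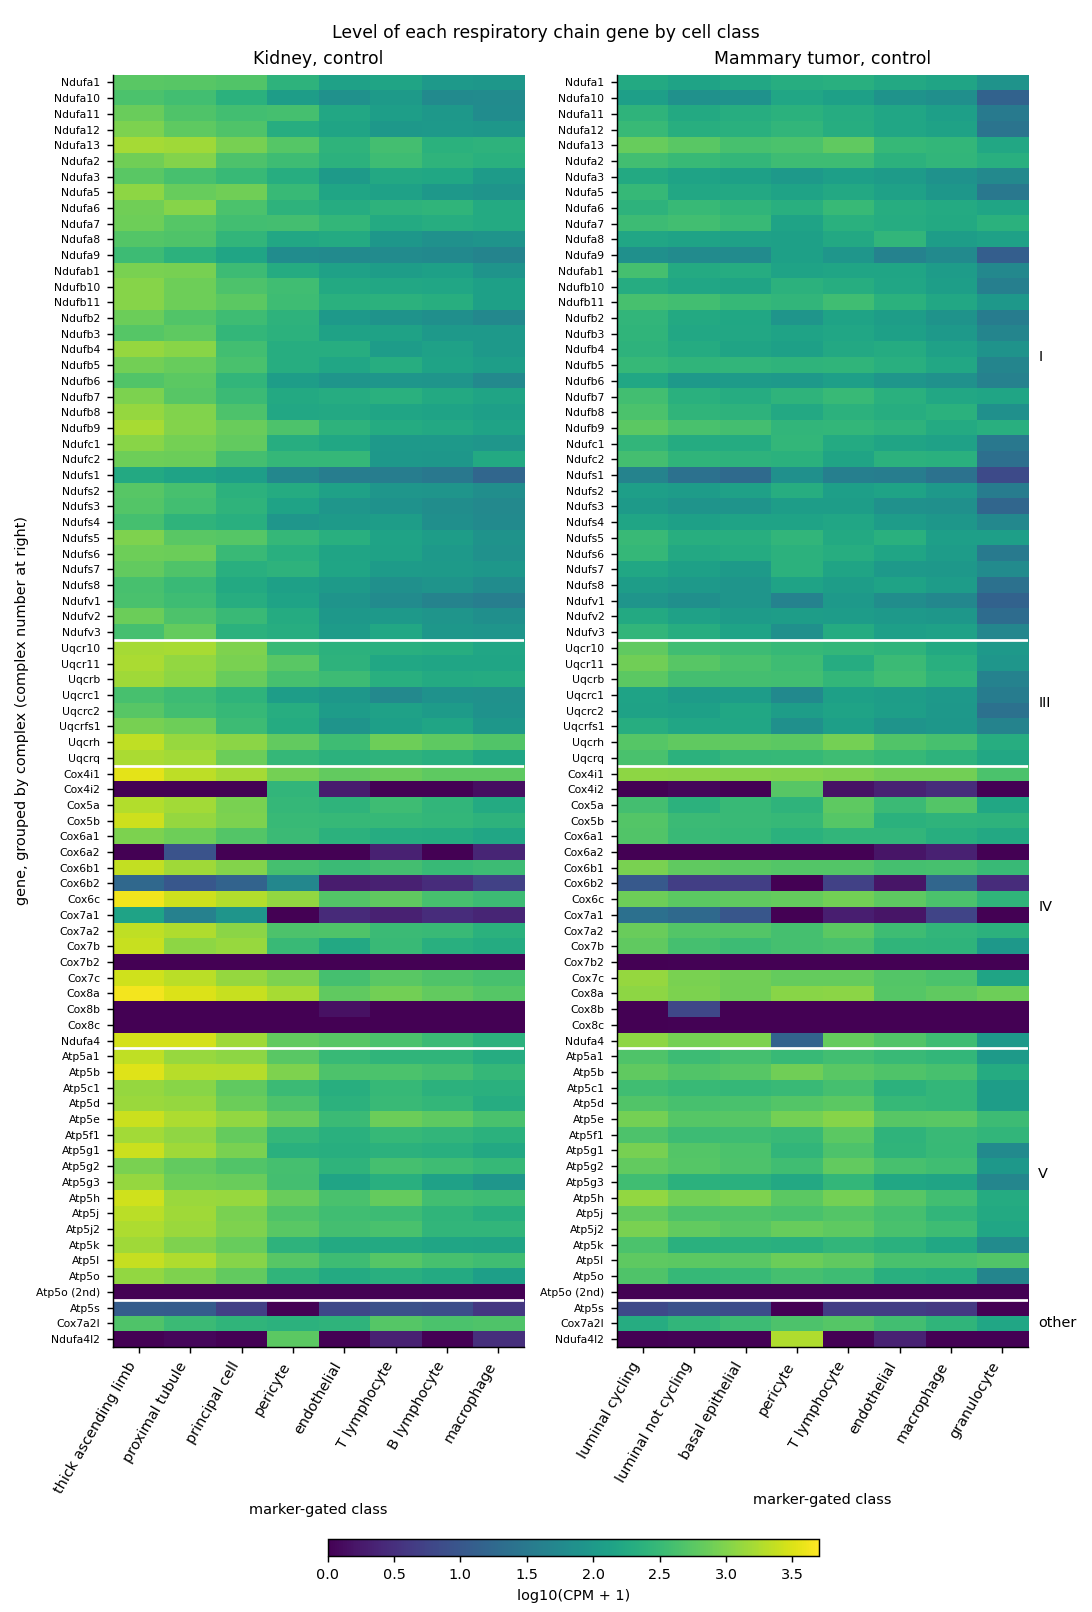
Level of each member, as log10 of CPM + 1, in the classes of the control libraries, with members in rows grouped by complex and kidney and tumor classes in columns. Proximal tubule and thick ascending limb columns are high across nearly the whole list, whereas Ndufa4l2 and Cox4i2 stay near 0 outside pericytes.

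The difference between proximal tubule and endothelial cells extended over the whole list. The share was 4.47 times higher in proximal tubule cells in the control (4.42 to 4.52), 3.34 times at 15 min and 3.99 times at 60 min. Leaving mitochondrial transcripts out of the denominator gave 4.86, 4.11 and 4.37. Of 72 members with a mean of at least 10 CPM, 71, 69 and 71 were more than 1.5-fold higher in proximal tubule cells, whereas 25.5%, 20.8% and 25.2% of all genes tested were. The median member log2 ratio was 2.15, 1.81 and 2.01, while the median of all genes was -0.81, -1.14 and -0.72. In the control the ratio was 4.16 for complex I, 4.99 for complex III, 4.70 for complex IV and 4.62 for complex V. Other scalings place the proximal tubule still higher, at 9.14-fold with TMM factors and 8.94-fold with median-of-ratios factors. These scalings move the median gene by 1 log2 unit or slightly more.

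Individual members ranged widely around this. Uqcrfs1, the Rieske iron-sulfur protein of complex III, stood at 756, 596 and 708 CPM in proximal tubule cells and at 80.0, 93.6 and 91.6 CPM in endothelial cells, a ratio of 9.45 (8.15 to 11), 6.36 and 7.73. Cox7a1 had 41.3, 31.1 and 49.5 CPM in proximal tubule cells. In endothelial cells it had 4, 1 and 31 UMIs (1.80, 0.749 and 3.51 CPM), so its control ratio of 23.0 has an interval from 8.94 to 84.6, and at 60 min it was 14.1 (9.85 to 20.9). The exception was Cox7a2l, a factor of respiratory supercomplexes, with 330, 225 and 275 CPM in proximal tubule and 255, 263 and 235 CPM in endothelial cells. Its ratio of 1.29, 0.856 and 1.17 was the lowest of all tested members in each library and lay below 1 at 15 min.

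Other genes of the pathway were higher in proximal tubule cells too, in the control. Among all 8036 genes tested there, 2046 were past 1.5-fold higher and 4374 lower. All 5 genes of complex II and cytochrome c (Sdha to Sdhd and Cycs) were past 1.5-fold, with a summed ratio of 6.41. Of 14 citrate cycle genes 13 were (4.10), and of 29 tested assembly factors 19 were higher and 1 lower (2.26). Glycolytic genes split, with 8 of 13 higher and 4 lower (3.75). Of 6 tested regulators 3 were higher and 3 lower (0.940). Among them Ppargc1a, a coactivator of mitochondrial biogenesis, had a log2 ratio of 1.86, and the transcription factor gene Nrf1 had -2.43. Of the 13 mitochondrially encoded subunits 12 were higher (2.09). Cytosolic ribosomal protein genes, another group of abundant short messages, differed little, with 6 of 79 higher, 3 lower and a summed ratio of 1.03.

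Thick ascending limb cells were compared with proximal tubule cells in the control. Their share was 1.35 times higher (1.33 to 1.36), with 22 of 74 members past 1.5-fold higher and 1 lower, against 37.4% of all genes tested higher. The share of members is thus below that of all genes. The direction also depended on the scaling, since TMM factors gave 0.967, median-of-ratios factors 0.965 and keeping cells above the gene and mitochondrial limits 0.855. Ndufv3, an accessory subunit of the NADH-binding module of complex I, was the member past 1.5-fold lower, at 406 CPM against 670 CPM in proximal tubule cells. Its ratio was 0.605, 0.50 and 0.562 in the 3 libraries. On the platform the share ratio was 1.16 at 15 min and 1.17 at 60 min.

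Along the proximal tubule, cells with S1 markers (Slc5a2, Slc2a2, Slc5a12) had shares of 7.48%, 6.47% and 7.14%, and cells with S3 markers (Slc7a13, Slc22a13, Slc22a7, Cyp7b1) 6.47%, 5.66% and 6.16%. The ratio of S1 to S3 was 1.16, 1.14 and 1.16. Of the tested members 4 of 72, 5 of 72 and 8 of 73 were past 1.5-fold higher in S1 and 0 lower, whereas 24.5%, 28.2% and 31.6% of all genes tested were higher. The median member log2 ratio, at 0.21, 0.19 and 0.23, was close to or below that of all genes, at 0.19, 0.27 and 0.27. Against this background Cox7a1 stood out in size, with 64.0, 49.7 and 68.3 CPM in S1 and 16.7, 17.6 and 19.3 CPM in S3, a ratio of 3.83 (2.62 to 5.78), 2.82 (2.33 to 3.44) and 3.54 (2.47 to 5.23). Atp5g1, a gene for the membrane ring subunit c of ATP synthase, had a ratio of 1.57, 1.53 and 1.65. Atp5o, the subunit that links the catalytic head to the stalk, had 1.52, 1.51 and 1.72. Complex V had the highest S1 to S3 ratio of the 4 complexes in each library (1.25, 1.22 and 1.26).

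Luminal tumor cells exceeded tumor endothelial cells by less. The share ratio was 1.32 (1.30 to 1.34), 1.22 and 1.20, and 19, 11 and 10 of 71 members were past 1.5-fold higher, against 18.8%, 20.0% and 19.3% of all genes tested. The control share of members is above this background, and those at 15 and 60 min are below it. Across members the median log2 ratio was 0.37, 0.23 and 0.24, and the median of all genes -0.31, -0.23 and -0.25. TMM factors gave a control ratio of 1.75 and median-of-ratios factors 1.71. These factors, with log2 values of -0.405 and -0.376, shift every gene alike. Members past 1.5-fold in either direction then numbered 48 and 47, counts that cannot be set against the background above. Atp5g1 was among the highest members, with 531, 529 and 524 CPM in luminal cells and 264, 299 and 293 CPM in endothelial cells. Ndufa13, a membrane-arm subunit of complex I also known as GRIM-19, had ratios of 1.89, 1.97 and 2.19. Some members ran the other way. Ndufa8 stood at 139, 150 and 132 CPM in luminal cells and at 271, 331 and 315 CPM in endothelial cells, a ratio of 0.513 (0.464 to 0.568), 0.452 and 0.420. Cox7a2l had ratios of 0.724, 0.664 and 0.564, and Cox5a, a subunit of complex IV, 0.737, 0.601 and 0.648. Ndufs1, past the threshold in the control, had 0.653, 0.771 and 0.885.

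The other gene lists were mixed here. Among all 8127 genes tested between luminal and endothelial cells in the control, 1528 were past 1.5-fold higher and 3105 lower. In the control, of 5 complex II and cytochrome c genes 0 were past 1.5-fold between luminal and endothelial cells (summed ratio 0.955), and of 14 citrate cycle genes 3 were higher and 1 lower (1.10). Of 24 tested assembly factors 5 were higher and 4 lower (1.13), of 5 regulators 1 was higher and 4 lower (0.664), and of 13 mitochondrially encoded subunits 0 passed (1.07). Glycolytic genes were higher for 7 of 14 (1.60) and ribosomal protein genes for 18 of 79 (1.36).

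Against tumor macrophages, luminal cells had a share ratio of 1.51, 1.52 and 1.61, with 33, 38 and 40 of 72 members past 1.5-fold higher and 36.8%, 35.4% and 36.8% of all genes tested. On the log2 scale the median member ratio was 0.58, 0.60 and 0.67, against 0.26, 0.25 and 0.26 for all genes. Cox5a was lower in luminal cells in each library, with 244, 226 and 235 CPM against 505, 467 and 429 CPM in macrophages, a ratio of 0.483, 0.485 and 0.549. Cox6b2, a testis isoform at low level, was also past the threshold at 60 min (3.52 against 16.8 CPM).

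Cycling luminal cells, gated by Mki67, Top2a, Cdk1 and Birc5, had higher shares than other luminal cells. They held 3.18% (95 cells), 2.92% (56 cells) and 3.18% (53 cells), while cells without these markers held 2.35%, 2.38% and 2.27%. The ratio was 1.35 (1.34 to 1.37), 1.22 (1.21 to 1.24) and 1.40 (1.38 to 1.42). Of 72 members 23, 6 and 29 were past 1.5-fold higher and 0 lower, where 19.9%, 17.7% and 24.0% of all genes tested were higher, so the 15 min share of members was below that background. The median member log2 ratio was 0.44, 0.26 and 0.51, and that of all genes 0.08, 0.03 and 0.11. Ndufab1, the mitochondrial acyl carrier protein bound to complex I, stood at 410, 276 and 372 CPM in cycling and 182, 189 and 176 CPM in other luminal cells, a ratio of 2.25, 1.46 and 2.12. Cox5a had a ratio of 1.65, 1.82 and 2.01. Atp5h, a stalk subunit of ATP synthase, had 1.48, 2.10 and 1.54, and Atp5k, another membrane-sector subunit, 2.06, 1.52 and 1.82. Median UMIs per cell were 9366, 12610 and 13080 in cycling cells and 7898, 9548 and 8733 in the others, and the part of depth in these ratios was not tested.

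Macrophages of the tumor carried a higher share than macrophages of the kidney, by 1.26-fold (1.25 to 1.27), 1.24-fold and 1.40-fold in the control, 15 min and 60 min libraries. Of 71 members 16, 15 and 34 were past 1.5-fold higher, against 23.4%, 23.9% and 24.3% of all genes tested, so only the 60 min share of members lay above that background. Across members the median log2 ratio was 0.39, 0.33 and 0.56, and that of all genes 0.15, 0.14 and 0.13. Cox5a had 505, 467 and 429 CPM in tumor macrophages and 183, 184 and 147 CPM in kidney macrophages, a ratio of 2.76, 2.54 and 2.92, the highest of any tested member in each library. Cox7a2l went the other way, with 0.540, 0.680 and 0.861. Tissue, sex, age and strain differ together between these animals and cannot be told apart.

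The digestion conditions were then compared within a class. In proximal tubule cells the share at 15 min was 0.837 of the control (0.835 to 0.839) and at 60 min 0.964 (0.962 to 0.967). Of 73 members 0 passed 1.5-fold in either direction at 15 or at 60 min, while 7.15% and 5.64% of all genes tested did. On the log2 scale the median member ratio was -0.26 at 15 min and -0.08 at 60 min, and the median of all genes -0.24 and 0.00. The 15 min median is thus close to that of all genes. With TMM or median-of-ratios factors 1 member, Cox6a1, passed at 15 min. Member UMIs per proximal tubule cell averaged 445, 471 and 438 in the control, 15 min and 60 min libraries, and mitochondrially encoded subunits took 14.2%, 22.6% and 17.0% of all UMIs. With mitochondrial transcripts left out of the denominator, members took 8.44%, 7.83% and 8.41%, a ratio of 0.928 at 15 min and 0.996 at 60 min. TMM and median-of-ratios factors, which shift the median gene by 0.25 and 0.24 log2 units at 15 min, gave 0.998 and 0.988 there, and 0.885 and 0.892 at 60 min.

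**Figure D3:**
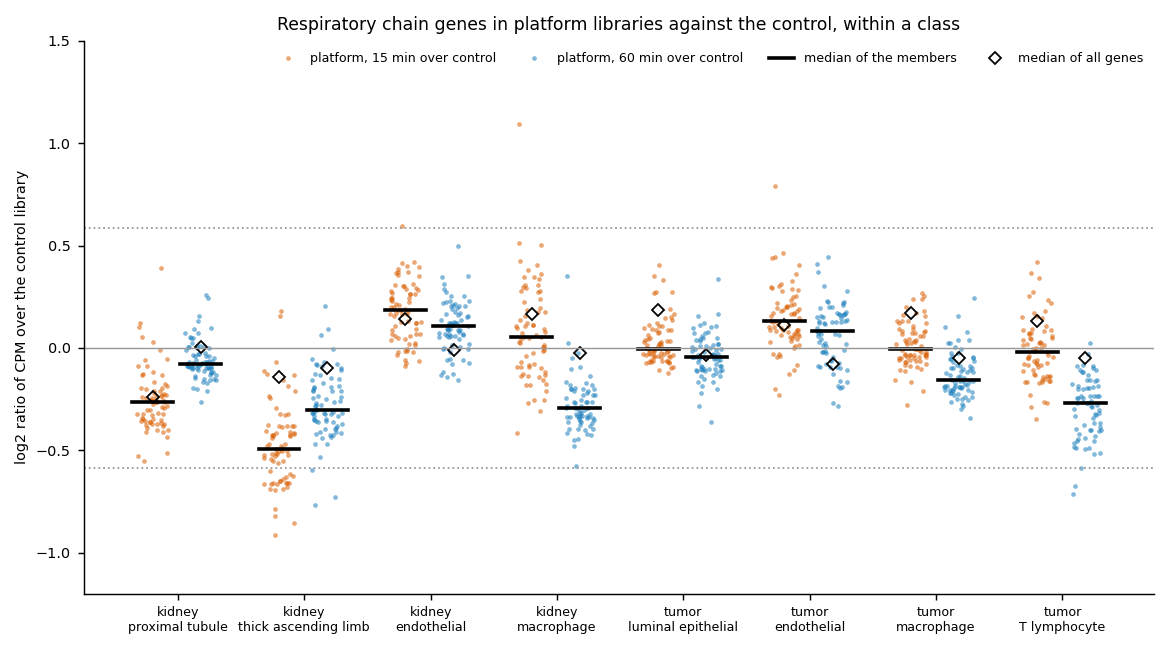
Log2 ratio of each member's CPM in the 15 min and 60 min platform libraries over the control, in 8 cell classes; each point is a member, the black bar is the member median, the diamond the median of all genes tested, and dotted lines mark 1.5-fold. In proximal tubule and luminal cells all members lie inside the 1.5-fold lines, whereas 22 members of the thick ascending limb lie below them at 15 min (4 with TMM factors or without mitochondrial transcripts).

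Members of 1 complex did not move as a block in proximal tubule cells. At 15 min the ratio was 0.841 for complex I, 0.803 for complex III, 0.876 for complex IV and 0.808 for complex V. Cox6a1, the isoform of subunit VIa used outside muscle, stood at 771, 1011 and 810 CPM in the control, 15 min and 60 min libraries, so its 15 min value was the highest (log2 ratio 0.39), in contrast to the list as a whole. The lowest 15 min ratios of each complex were those of Ndufb2 (-0.51; 492 and 345 CPM), Uqcr10 (-0.41), Cox7a1 (-0.41) and Atp5e (-0.53; 1781 and 1236 CPM), and Cox7a2l was lower still (-0.55; 330 and 225 CPM). The highest were Ndufb9 (0.12), Uqcrc2 (0.03), Cox6a1 (0.39) and Atp5b (-0.09). At 60 min the extremes ran from Cox7a2l (-0.26) and Ndufv2 (-0.21) to Ndufa3 (0.25) and Cox7a1 (0.26), with Uqcrh (-0.17) and Uqcr11 (0.05) in complex III, Ndufa4 (-0.11) as the lowest of complex IV, and Atp5j (-0.16) and Atp5k (0.13) in complex V. Cox6a1 was also the member past 1.5-fold in kidney endothelial cells at 15 min (239, 361 and 276 CPM). Its 15 min ratio in other classes was 0.954 in the thick ascending limb, 1.08 in kidney macrophages, 1.15 in B lymphocytes, 0.909 in kidney T lymphocytes and 0.983 in luminal tumor cells. These classes were chosen after its values were seen.

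The neighbouring lists gave the following in proximal tubule cells at 15 min over the control. Among all 5859 genes tested, 271 were past 1.5-fold higher and 148 lower, with a median log2 ratio of -0.24. Of 5 complex II and cytochrome c genes, 14 citrate cycle genes, 30 tested assembly factors, 5 tested regulators and 10 tested glycolytic genes, 0 passed 1.5-fold, with summed ratios of 0.807, 0.900, 0.777, 0.805 and 0.864. Of 13 mitochondrially encoded subunits 8 were higher (1.59). Of 79 tested ribosomal protein genes 11 were lower and 0 higher (0.712). Of the 4 abundant proximal tubule transcripts Kap was higher and the summed ratio was 1.40. At 60 min the summed ratios were 0.893, 0.968, 0.941, 1.03, 0.934, 1.19 and 0.902 for complex II and cytochrome c, citrate cycle, assembly factors, regulators, glycolysis, mitochondrially encoded subunits and ribosomal proteins. There, Ppargc1a (log2 ratio 0.72) and mt-Nd4l were past 1.5-fold higher, as were 315 of all 6153 genes tested.

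In thick ascending limb cells the share at 15 min was 0.721 of the control (0.709 to 0.733) and at 60 min 0.834 (0.824 to 0.844). Of 74 members 22 were past 1.5-fold lower at 15 min and 3 at 60 min, where 24.1% and 16.8% of all genes tested were lower. The 22 members lower at 15 min became 4 without mitochondrial transcripts in the denominator, 4 with TMM factors and 0 at a 2-fold limit. The median member log2 ratio was -0.49 and -0.30, and that of all genes -0.14 and -0.10. Among the 10 members with the lowest 15 min ratios, Ndufa5 had 1175 and 650 CPM in the control and 15 min libraries, Uqcrb 1502 and 929 CPM, Uqcr10 1589 and 986 CPM, Cox7b 2484 and 1565 CPM, and Ndufa12 946 and 586 CPM. The others were Cox7a1, Cox6b2, Ndufa9, Ndufb2 and Uqcrfs1, and Cox6b2 rested on 6 and 3 UMIs. At 60 min the 3 members were Cox6b2, Cox7a1 and Ndufa12. The 15 min value rests on 61 cells and on the upper limits for cells, since without those limits the ratio was 1.02 and 2 members were higher and 0 lower. The mark of free proximal tubule RNA in these cells was 20%, 9.39% and 13.1% of the proximal tubule level in the control, 15 min and 60 min libraries. In CPM it was 12910, 8464 and 7718. Its part in the ratios was not tested.

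Kidney endothelial cells showed the opposite sign to proximal tubule cells at 15 min, with a share ratio of 1.12 (1.10 to 1.14), and 1.08 at 60 min. Of 71 members 1 (Cox6a1) and 0 passed 1.5-fold, whereas 17.8% and 5.49% of all genes tested did. A median member log2 ratio of 0.19 and 0.11 compares with 0.14 and -0.01 for all genes, and TMM and median-of-ratios factors brought the 15 min ratio to 1.01. Kidney macrophages had ratios of 1.01 (0.992 to 1.04; 131 cells at 15 min) and 0.816 (0.808 to 0.825), and the 15 min value turned to 0.872 with TMM factors. Of 71 members 1 passed at 15 min and 0 at 60 min, against 27.5% and 7.75% of all genes tested. That member was Ndufs1, with 15.8, 33.7 and 20.2 CPM and a 15 min ratio of 2.13 (1.30 to 3.38) on 24 and 89 UMIs. At 60 min the median member log2 ratio was -0.30 and that of all genes -0.02.

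In luminal tumor cells the share at 15 min equalled the control within 1%, at a ratio of 1.004 (1.001 to 1.007) that turned below 1 under other scalings (0.894 with TMM and 0.887 with median-of-ratios factors). At 60 min it was 0.965 (0.962 to 0.969). Of 72 members 0 passed 1.5-fold at either time, against 7.18% and 3.44% of all genes tested. The median member log2 ratio at 15 min was 0.00 and that of all genes 0.18. The highest 15 min values of each complex were Ndufs1 (log2 ratio 0.40; 23.8 and 31.5 CPM), Uqcrc2 (0.33; 126 and 159 CPM), Cox7a1 (0.04) and Atp5a1 (0.35; 343 and 438 CPM), and the lowest were Ndufa12 (-0.10), Uqcr11 (-0.08), Cox5a (-0.11) and Atp5e (-0.12). At 60 min the lowest were Cox7a1 (-0.36), Atp5h (-0.29), Ndufb2 (-0.19) and Uqcr11 (-0.15), and the highest Uqcrc1 (0.34), Ndufv1 (0.17), Atp5c1 (0.11) and Cox4i1 (0.11). The lists beside the members had summed 15 min ratios of 1.06 (complex II and cytochrome c), 1.11 (citrate cycle), 1.08 (assembly factors), 1.19 (regulators), 1.15 (glycolysis, with Hk2 past 1.5-fold lower), 0.855 (mitochondrially encoded, 3 of 13 lower), 0.945 (ribosomal proteins) and 1.02 (the 5 luminal transcripts, 2 lower).

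Other tumor classes gave few members past the threshold. In tumor endothelial cells the ratio was 1.09 at 15 min and 1.06 at 60 min, with 1 (Ndufa9, 42.0 and 72.8 CPM) and 0 of 71 members past 1.5-fold against 15.8% and 13.2% of all genes tested. Tumor macrophages had 0.999 and 0.908, with 0 of 72 members at either time against 25.2% and 11.6% of all genes tested. Tumor T lymphocytes had 0.974 and 0.814 (0.802 to 0.826), with 0 and 3 of 71 members against 26.5% and 24.5% of all genes tested. The 3 members were lower at 60 min, namely Ndufa9 (86.7 and 52.9 CPM), Cox5b (521 and 326 CPM) and Ndufc1 (180 and 120 CPM). The median T lymphocyte had 8051 UMIs in the control and 4233 at 60 min, and the part of depth in this ratio was not tested. Basal cells had 0.927 and 0.967, with 1 of 71 members, Ndufs1, past 1.5-fold higher at both times against 26.6% and 24.3% of all genes tested (17.9, 38.2 and 27.9 CPM on 14, 41 and 49 UMIs).

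The shares of nuclear and mitochondrial subunits moved in opposite directions in some classes and together in others. Both are shares of the same UMI total, so a higher mitochondrial share by itself lowers the nuclear one. Without mitochondrial transcripts in the denominator, members took 8.44% in control and 7.83% in 15 min proximal tubule cells. The mitochondrially encoded subunits took 14.2%, 22.6% and 17.0% of UMIs in proximal tubule cells, 25%, 34.0% and 30.8% in the thick ascending limb, 28.2% and 28.4% in principal cells of the control and 60 min libraries and 29.0% in distal convoluted tubule cells at 60 min. Principal cells thus had mitochondrial shares near those of the thick ascending limb and lower nuclear shares. Endothelial cells held 6.81%, 4.83% and 9.12%, kidney macrophages 6.58%, 10.6% and 7.78%, luminal tumor cells 10.1%, 8.63% and 10.6%, and granulocytes 1.32%, 2.07% and 3.01%. Mitochondrial over nuclear subunit UMIs came to 1.97, 3.73 and 2.43 in proximal tubule cells, 2.56, 4.83 and 3.79 in the thick ascending limb, 5.25, 8.35 and 7.62 in kidney macrophages and 4.22, 3.60 and 4.60 in luminal cells. In kidney endothelial cells the 15 min ratio was the lowest of the 3 (4.21, 2.66 and 5.21), in proximal tubule cells the highest. From control to 60 min both shares were higher in kidney endothelial cells and both lower in tumor T lymphocytes (5.27% and 4.95% for the mitochondrial subunits).

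**Figure D4:**
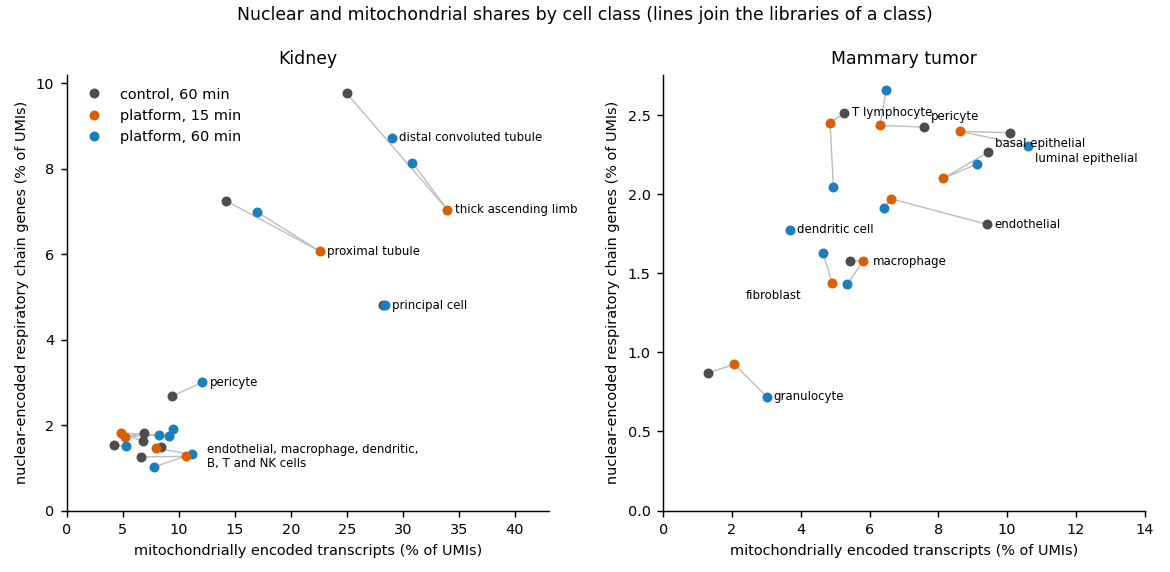
Share of UMIs from nuclear-encoded respiratory chain genes (y axis, percent) against the share from the 13 mitochondrially encoded subunits (x axis, percent), per class and library. Lines join the libraries of a class, and both shares are of the same UMI total. From control to 15 min the proximal tubule moves from 7.24% (nuclear) and 14.2% (mitochondrial) to 6.06% and 22.6%.

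The paralog pair Ndufa4 and Ndufa4l2 set pericytes apart. Pericytes, the contractile cells around small vessels, were gated, together with the related mesangial cells of the kidney, by Rgs5, Notch3, Pdgfrb, Kcnj8 and Cspg4, and were few, with 12, 21 and 49 cells in the tumor libraries and 17, 2 and 35 in kidney. In tumor pericytes Ndufa4l2 was the most abundant member of the whole list in all 3 libraries, at 1809, 1182 and 1633 CPM. Ndufa4 had 1, 1 and 8 UMIs there (14.1, 8.38 and 24.6 CPM), against 865, 849 and 840 CPM in luminal cells and 491, 536 and 494 CPM in tumor endothelial cells. Ndufa4l2 therefore made up 128 of 129 UMIs of the pair in the control (99.2%, exact binomial interval 95.8 to 100), 141 of 142 at 15 min (99.3%) and 530 of 538 at 60 min (98.5%, 97.1 to 99.4).

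Most pericytes showed the pattern one by one. An Ndufa4l2 UMI was found in 12 of 12, 19 of 21 and 46 of 49 tumor pericytes, and an Ndufa4 UMI in 1 of 12, 1 of 21 and 5 of 49. In luminal cells an Ndufa4 UMI was found in 90.5% to 95.7% of cells and an Ndufa4l2 UMI in 0.0326%, 0.0828% and 0.0952%. Median UMIs were 6128, 5121 and 6735 in tumor pericytes and 8090, 9646 and 9071 in luminal cells, so depth was of the same order. The Ndufa4l2 share stayed at or under 0.727% of the pair in endothelial cells, 0.0118% in luminal and 0.0126% in proximal tubule cells. Tumor fibroblasts held 4.64% at 15 min and 10.2% at 60 min.

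Kidney pericytes carried a mixture. Ndufa4l2 took 47 of 98 UMIs of the pair in the control (48.0%, 37.8 to 58.3) and 50 of 203 at 60 min (24.6%, 18.9 to 31.2), with Ndufa4l2 at 586 and 270 CPM and Ndufa4 at 636 and 827 CPM. An Ndufa4l2 UMI was found in 10 of 17 and 20 of 35 cells. The kidney and tumor intervals did not overlap. Mesangial cells share the gate markers, and their part in the mixture was not tested. The tumor pericyte gate also held fibroblast markers at 1810, 3690 and 3530 CPM beside 12300, 12000 and 10200 CPM of its own, whereas the next class in kidney pericytes was at or under 87.3 CPM.

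**Figure D5:**
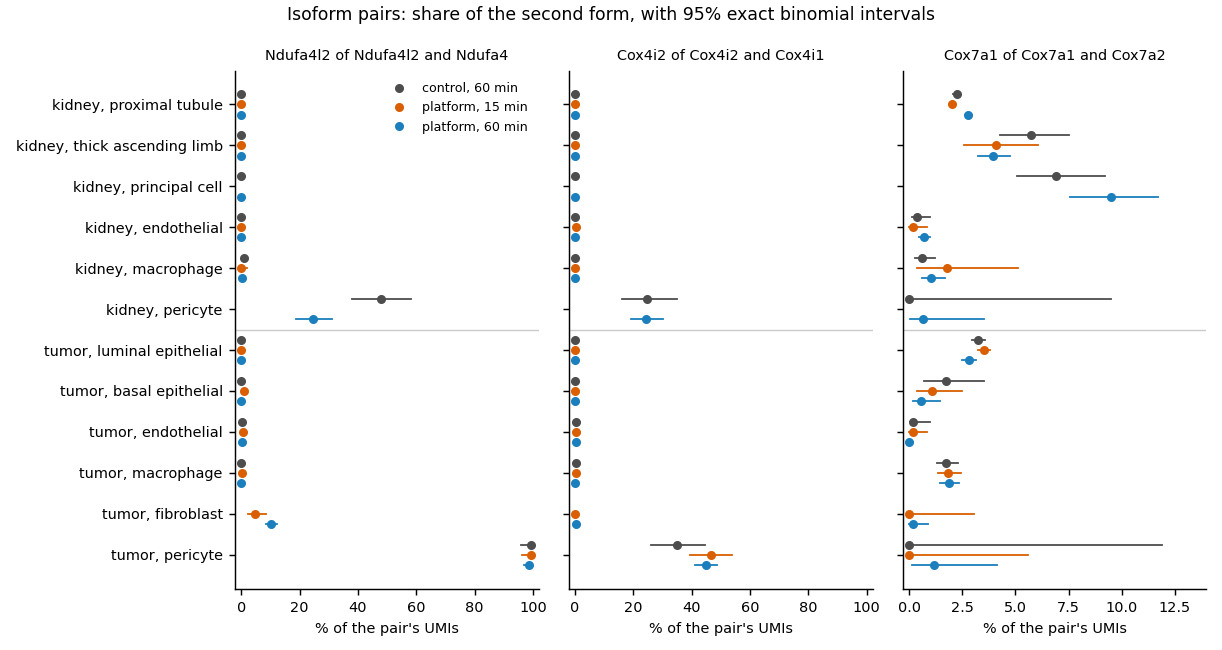
Share (percent) of Ndufa4l2, Cox4i2 and Cox7a1 in the UMIs of their isoform pair, by class and library, with exact 95% binomial intervals and a separate scale for Cox7a1. Ndufa4l2 exceeds 98% in tumor pericytes and Cox4i2 lies between 34.8% and 46.5% there, while both stay near 0 in epithelial and immune classes.

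The same cells carried Cox4i2, the isoform of complex IV subunit 4 known from lung and from oxygen sensing. Cox4i2 made up 34.8%, 46.5% and 44.9% of the Cox4i pair in tumor pericytes, and 22 of 89 UMIs (24.7%) and 59 of 242 UMIs (24.4%) in kidney pericytes of the control and 60 min libraries. Its level was 551, 779 and 915 CPM in tumor and 274 and 319 CPM in kidney pericytes, beside Cox4i1 at 1032, 897 and 1125 CPM in tumor pericytes. Cox4i2 UMIs were present in 11 of 12, 17 of 21 and 44 of 49 tumor pericytes. Cox4i1 was thus retained at levels like those of luminal cells, unlike Ndufa4. The share of all members in pericytes was 2.42%, 2.44% and 2.66% in tumor and 2.67% and 3.00% in kidney, above the endothelial cells of the same libraries.

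Cox7a1 was a minor isoform, highest in epithelium. It took 2.22%, 2.01% and 2.78% of the pair with Cox7a2 in proximal tubule cells, where S1 cells held 3.38%, 3.1% and 3.78% and S3 cells 0.978%, 1.21% and 1.18%. The thick ascending limb held 5.75%, 4.06% and 3.94%, principal cells 6.91% and 9.48%, and luminal tumor cells 3.25%, 3.50% and 2.79%, whereas endothelial cells stayed at or under 0.694%. Cox8b, a brown fat and muscle isoform, appeared at 4.91, 7.95 and 4.02 CPM in luminal tumor cells on 134, 286 and 81 UMIs. Cox6a2, the muscle isoform of subunit VIa, was highest in kidney dendritic cells of the control, at 114 CPM (64 UMIs in 56 cells) beside 173 CPM of Cox6a1. In dendritic cells of the 60 min library it had 10.8 CPM (13 UMIs in 117 cells). Proximal tubule cells held 7.71, 6.06 and 7.72 CPM of Cox6a2 beside 771, 1011 and 810 CPM of Cox6a1. Atp5g1 had 1492, 1233 and 1462 CPM in proximal tubule, 2532, 1946 and 2032 CPM in thick ascending limb and 208, 218 and 224 CPM in kidney endothelial cells.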

How the data were processed

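Single cell RNA sequencing was performed on droplet libraries of 6 mouse samples, 3 from kidney and 3 from mammary tumor, with 1 library per condition. Per the submitters' notes, Cell Ranger 3.1.0 made the matrices, and the authors deposited UMI counts as whole numbers for every gene and barcode. The libraries of a tissue were joined with the aggregation step of that software, which samples reads down to an even depth between libraries, so totals are those after this step. Cells with at least 200 genes, at most 3000 (kidney) or 4000 (tumor) genes, and at most 50% or 25% mitochondrial UMIs were kept. Doublets were limited only by the upper gene limits and by leaving out cells with markers of more than 1 class, with 2 exceptions. Cells with both fibroblast and pericyte markers were kept in the class that led by at least 2 markers. Basal cells were kept with luminal markers. Cells were assigned to a class by at least 2 of its markers, or 3 for the leading epithelial class (proximal tubule or luminal). In cells of the leading class its markers had to take at least 0.5% (kidney) or 0.2% (tumor) of UMIs. In cells of other classes the leading-class markers had to take less than that, except in basal cells. These thresholds were set after the marker distributions were seen, and the members and lists were chosen with earlier results of these data known.

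UMIs were summed per library and class and scaled to CPM. Intervals are exact Poisson or binomial intervals at 95% and cover counting error only. PCR copies are collapsed by UMIs. With 1 library per condition no test was made, and a gene was called past 1.5-fold from its ratio of CPM, where its mean over both sums was at least 10 CPM and each class had at least 50 cells. Pericytes had fewer cells and are given as levels. The members named are those past 1.5-fold (the 10 with the largest ratio if more), the highest and lowest of each complex and the isoform pairs, together with genes said to be chosen later. Alternatives were TMM factors (edgeR 4.0.16) and median-of-ratios size factors, other filters, other gates, thinning to 1000 UMIs per cell, and denominators without mitochondrial genes. The scripts (Python 3.11.15, SciPy 1.17.1, pandas 2.3.3) were tested on simulated data. Coding sequences came from GRCm38 with GENCODE M21, and promoters from RefSeq (GRCm38.p6). All 81 members matched the annotation. Libraries held 69691783 to 116998401 UMIs.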

Additional observations from a re-analysis of the deposited data

Results flagged for a closer look

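The 15 min platform library differed from the control in opposite directions in 2 kidney classes. The member share was 0.837 of the control in proximal tubule cells and 1.12 times the control in endothelial cells. The median member log2 ratio was -0.26 and 0.19, close to the medians of all genes, -0.24 and 0.14. With TMM or median-of-ratios factors both share ratios came near 1. With 1 library per condition the difference between the 2 share ratios was not tested. The mitochondrially encoded subunits, taken over the same UMI total, went the other way in both classes, and the part of this in the result was not tested.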

How the results depend on the processing

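No paired analysis was possible because each condition had 1 library, and for the same reason no replicate could be left out. Other cell filters and gates, other scalings (TMM and median-of-ratios factors), a denominator without mitochondrial transcripts, equal weight per cell, thinning to 1000 UMIs, no filter on low levels, a 2-fold limit and, added after the data were seen, a filter of 30 UMIs and the removal of shared barcodes were tried. Of the values for the leading shares and comparisons 82 stayed the same, 41 moved by more than counting error, 10 gained and 4 lost members past the limit, and 6 reversed. For the further shares and comparisons the counts were 129, 111, 22, 10 and 7 in the same order. The causes were not tested. The proximal tubule share of the control was 8.44% without mitochondrial transcripts, 7.20% without upper cell limits, 7.22% with a stricter gate, and 7.27% with equal weights or thinning. The luminal share was 2.66% without mitochondrial transcripts, 2.48% without upper limits, 2.27% with equal weights and 2.29% thinned. The proximal tubule ratio at 15 min was 0.928 without mitochondrial transcripts, 0.998 and 0.988 with TMM and median-of-ratios factors, 0.812 without upper limits and 0.839 with a stricter gate, and members past 1.5-fold numbered 1 with either scaling, 1 without the level filter and 2 thinned. At 60 min the ratio was 0.996, 0.885, 0.892, 0.952 and 0.967 in the same order, 0.932 with equal weights and 0.948 thinned. The thick ascending limb at 15 min gave 0.819, 0.785, 0.756, 0.738 (equal weights) and 0.742 (thinned), with 4 members lower without mitochondrial transcripts, 4 with TMM and 0 at 2-fold. Without upper limits it reversed to 1.02 with 2 members higher. A stricter gate left too few of these cells for a value. The luminal ratio at 15 min reversed to 0.988 without mitochondrial transcripts, 0.894 with TMM, 0.887 with median-of-ratios factors and 0.994 thinned, and was 1.01 without upper limits, and 4 members passed without the level filter and 1 with at least 30 UMIs. At 60 min it was 0.971, 0.980, 0.980, 0.946 without upper limits and 0.955 thinned, with 5 members without the level filter and 1 thinned. Proximal tubule over endothelial was 4.86, 9.14, 8.94 and 4.60 (no upper limits). Luminal over endothelial was 1.75 and 1.71 with the scalings, which shift every gene, with 48 and 47 members past the limit in either direction. It was 1.34 without upper limits, 1.39 with equal weights and 1.38 thinned, with 1 member at 2-fold. The thick ascending limb over proximal tubule reversed to 0.967, 0.965 and 0.855 with 7, 7 and 13 members past the limit, mostly lower, under the 2 scalings and without upper limits. In kidney macrophages at 15 min 6 members passed without the level filter, on balance in the other direction. In pericytes of the 60 min libraries the Ndufa4l2 share of the pair ranged from 97.1% to 98.8% in tumor and from 24.6% to 29.4% in kidney over the settings. Classes of few cells, and members under 10 CPM, are limited by depth.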
